A study of Mus musculus with 20 samples.

Results

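After CTCF had been degraded with auxin, 2 ChIP-seq peak lists recorded where RAD21 lay on chromatin, one from parental mouse embryonic stem cells and one from cells that also lacked MAZ. The members were all peaks of these lists, 17912 in the parental and 6400 in the Maz knockout cells, which is 24312 of the 136043 peaks in the 12 lists of the series. A peak was called shared when it overlapped a peak of the other list by at least 1 bp, and otherwise parental-only or knockout-only. This gave 5284 shared and 12628 parental-only peaks in the parental list, and 5308 shared and 1092 knockout-only peaks in the knockout list. The 2 shared numbers differ because a peak of one list can span several of the other.

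Both cell populations were of the E14 line, were grown with LIF and 2 kinase inhibitors (2i), and carried CTCF with a degron tag, by which auxin has the protein degraded. Both received 2 days of auxin. The parental cells are named ΔCTCF here. The others, named ΔCTCF/ΔMAZ, came from the same degron line after Cas9 editing with a guide against Maz, and their title carries the mark B2 in addition, so they are taken as 1 clone. Untreated parental (WT) and untreated Maz knockout (ΔMAZ) cells of the same background served for comparison. The titles of both auxin libraries, like those of the untreated RAD21 libraries, also carry the letters ns, which no source used here explains. The parental auxin title ends in _2, taken as a replicate number, and the knockout title has no such ending. Peak lists hold no expression values, so the stem cell label could not be checked against marker genes.

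Cohesin is a ring-shaped complex, with RAD21 as its closing subunit, that reels in chromatin to form loops. CTCF, a zinc finger protein bound to an oriented DNA motif, halts the ring and so gathers cohesin into sharp peaks. MAZ is another zinc finger protein, binds G-rich DNA that is common at promoters, and is described as a further barrier to cohesin. Comparing ΔCTCF with ΔCTCF/ΔMAZ asks where cohesin is still found when both barriers are gone.

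The DNA at 7 summits is given as examples, which do not stand for their whole class. Each line gives the summit and 50 bases to either side, from the plus strand of mm10 (GRCm38), at sites among the strongest of their class whose window touches no annotated exon. Capitals mark a match to any of 12 short strings that were searched, here AGGNGGC, part of the CTCF core motif, or its reverse complement. The first 2 are shared sites, a promoter site in an intron of Dnajc12, which encodes a co-chaperone, and an intergenic site 13026 bp from the TSS of Anxa4.
Dnajc12, shared, chr10:63382833-63382933: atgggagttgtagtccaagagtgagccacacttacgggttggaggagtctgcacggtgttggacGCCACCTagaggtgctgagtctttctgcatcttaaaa
Anxa4, shared, chr6:86806560-86806660: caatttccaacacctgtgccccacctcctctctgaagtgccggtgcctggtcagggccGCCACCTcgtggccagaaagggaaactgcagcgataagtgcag
The next 3 are parental-only, 1 in an intron of Mtus2, 1 beside the non-coding gene 4930443G03Rik, and 1 intergenic site on chromosome 14.
Mtus2, parental-only, chr5:148083679-148083779: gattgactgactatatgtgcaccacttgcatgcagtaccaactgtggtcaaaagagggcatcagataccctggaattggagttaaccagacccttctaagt
4930443G03Rik, parental-only, chr6:139577603-139577703: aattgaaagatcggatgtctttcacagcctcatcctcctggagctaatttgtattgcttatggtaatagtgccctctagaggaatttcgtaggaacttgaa
chromosome 14, parental-only, chr14:9318996-9319096: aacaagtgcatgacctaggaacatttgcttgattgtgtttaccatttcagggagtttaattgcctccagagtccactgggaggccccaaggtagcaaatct
The last 2 are knockout-only, upstream of Trim59 and at an intergenic site whose nearest protein-coding gene is Spocd1.
Trim59, knockout-only, chr3:69044941-69045041: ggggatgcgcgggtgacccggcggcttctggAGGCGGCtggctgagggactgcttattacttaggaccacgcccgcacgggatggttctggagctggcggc
Spocd1, knockout-only, chr4:129877365-129877465: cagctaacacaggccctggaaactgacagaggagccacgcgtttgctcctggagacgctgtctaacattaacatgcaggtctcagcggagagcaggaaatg
The printed shared windows hold the CTCF string, and the 2 other shared windows selected by the same rule, not printed, hold none of the strings. All 4 lay at CTCF peaks in every condition. The Mtus2 and 4930443G03Rik windows lay at CTCF peaks of WT and ΔMAZ, with none called after auxin. The Trim59 window is GC-rich (68.3% G or C) and lay at a MAZ peak of WT and of ΔCTCF. No CTCF peak was called there in any condition, so its capitals mark a match to the string alone.

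The libraries were examined first. The lists of the targeted proteins followed the labels, with 26394 CTCF peaks in WT against 2381 in ΔCTCF and 2570 in ΔCTCF/ΔMAZ, and with 6265 and 6759 MAZ peaks in WT and ΔCTCF against 33 in each knockout list. There was 1 RAD21 list for each condition, so the differences below could not be set against a spread between replicates, and p-values are not given. The intervals given in parentheses are 95% Wilson intervals over the peaks of these lists and cover counting error only. The depth of the 2 auxin libraries differed. Depth was estimated as the lowest background divided by the width of the narrowest peak (211 bp in ΔCTCF and 183 bp in ΔCTCF/ΔMAZ), which stood in for the fragment length. By this estimate ΔCTCF was 2.34 times as deep as ΔCTCF/ΔMAZ, while it held 2.80 times as many peaks. By the lowest background alone the ratio was 2.70. The spike-in did not enter these lists.

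Most of the knockout list lay within the parental list, and most of the parental list had no partner in the knockout. The knockout list held a partner for 29.5% (28.8 to 30.2) of ΔCTCF peaks. The parental list held one for 82.9% (82.0 to 83.8) of ΔCTCF/ΔMAZ peaks. The untreated pair, in which the knockout library was the deeper by 1.29 times, was compared in the same way. There, 83.5% (83.0 to 84.0) of WT peaks were called in ΔMAZ and 81.5% (81.0 to 82.0) of ΔMAZ peaks in WT. By chromosome, the share of ΔCTCF peaks called in ΔCTCF/ΔMAZ ran from 23.9% on chromosome 13 to 34.0% on chromosome 11, and the number of knockout peaks per parental peak from 0.276 on chromosome 13 to 0.420 on chromosome 14. No chromosome held a number of knockout peaks close to that of the parental list.

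Because the length of a list can vary with depth, equal numbers of the strongest peaks by fold enrichment were taken from each list. Fold enrichment is the number of fragments piled up at the summit, divided by the local background after 1 was added to both. Among the 500 strongest peaks, 71.8% (67.7 to 75.6) of ΔCTCF were called in ΔCTCF/ΔMAZ, and 69.8% (65.6 to 73.7) of WT in ΔMAZ. Among the 2000 strongest the shares were 75.0% (73.1 to 76.9) and 73.8% (71.8 to 75.7). Among the strongest peaks, the intervals of the auxin and the untreated pair thus overlapped. Beyond that length the pairs parted. Among the 4000 strongest, the shares were 70.5% (69.1 to 71.9) after auxin and 79.5% (78.2 to 80.7) without it, and among the 6400 strongest they were 61.9% (60.7 to 63.0) and 81.3% (80.4 to 82.3). The peaks at equal rank were not equally strong, since the 4000th peak had a fold enrichment of 7.04 in ΔCTCF and 5.93 in ΔCTCF/ΔMAZ, against 18.8 in WT and 19.1 in ΔMAZ. The 6400th peak had 5.65 in ΔCTCF and 1.68 in ΔCTCF/ΔMAZ, whose list ends there, against 14.3 in WT and 14.6 in ΔMAZ, so the auxin pair was least alike in strength at this length.

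**Figure D1:**
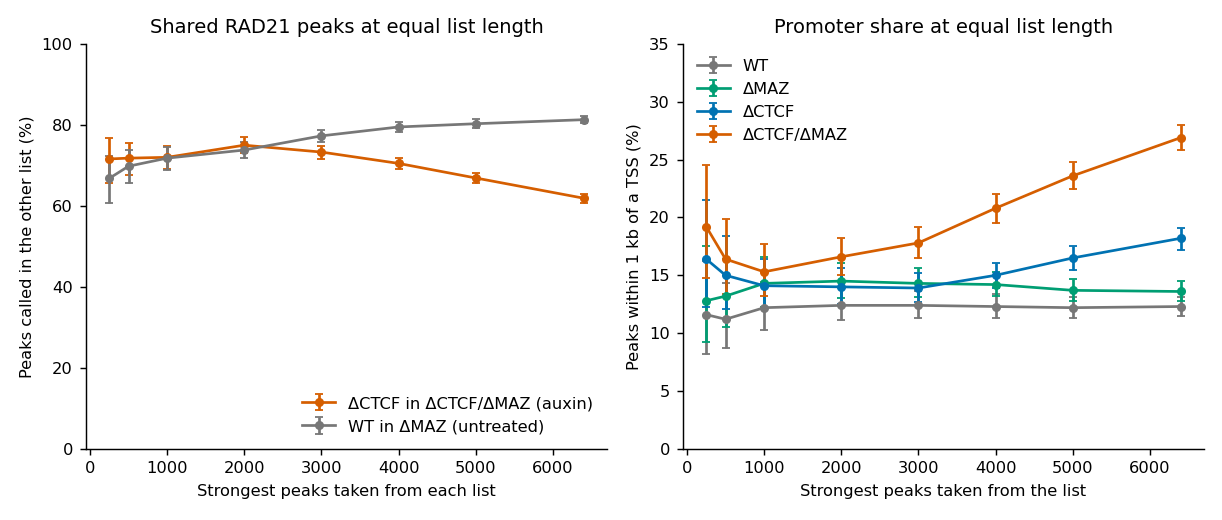
Left, the share (%) of the strongest RAD21 peaks of a list that were called among as many strongest peaks of its partner, against the number of peaks taken; right, the share (%) of those peaks within 1 kb of a TSS in the 4 lists. Points are single libraries and bars are 95% Wilson intervals. The auxin pair falls from 75.0% at 2000 peaks to 61.9% at 6400, while the untreated pair rises to 81.3%, and the promoter share of ΔCTCF/ΔMAZ climbs to 26.9%.

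Position set the classes apart. A peak counted as a promoter peak when its summit lay within 1 kb of an annotated TSS. Promoter peaks made up 43.1% (40.2 to 46.1) of knockout-only, 31.3% (30.5 to 32.1) of parental-only and 23.5% (22.4 to 24.7) of shared peaks. The order was reversed for intergenic positions, where 46.6% (45.2 to 47.9) of shared, 37.0% (36.2 to 37.8) of parental-only and 29.6% (26.9 to 32.4) of knockout-only peaks lay. Introns held 26.0% of shared, 27.6% of parental-only and 21.7% of knockout-only peaks. The 3′ ends of protein-coding genes also held more of the knockout-only peaks, with 6.32% (5.02 to 7.92) of summits within 1 kb of such an end against 3.70% (3.38 to 4.04) of parental-only and 3.54% (3.07 to 4.07) of shared peaks. The median distance to the nearest TSS was 2292 bp for knockout-only, 4927 bp for parental-only and 6337 bp for shared peaks.

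At equal list length the promoter share of knockout-only peaks was again the highest, and the intervals of parental-only and shared peaks overlapped. Promoters held 15.0% (12.1 to 18.4) of the 500 strongest ΔCTCF peaks and 16.4% (13.4 to 19.9) of the 500 strongest ΔCTCF/ΔMAZ peaks. With 6400 peaks of each, they held 18.2% (17.2 to 19.1) and 26.9% (25.8 to 28.0), against 12.3% (11.5 to 13.1) in WT and 13.6% (12.8 to 14.5) in ΔMAZ. Classes formed again from these 6400 peaks had promoter shares of 41.3% (39.3 to 43.2) for 2418 knockout-only, 18.3% (16.8 to 19.9) for 2441 parental-only and 18.1% (16.9 to 19.3) for 3959 shared peaks. Those classes are not ones of presence and absence, since 54.8% of the 2418 knockout-only peaks had a partner further down the full parental list. Nor are they of like strength, since the lists ended at fold enrichments of 1.68 in ΔCTCF/ΔMAZ and 5.65 in ΔCTCF. Promoter share also varied with strength within ΔCTCF. There, 1376 of the 3583 weakest peaks were promoter peaks, against 526 of the 3583 strongest. The promoter shares of the classes were not compared at like strength.

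CTCF sites made up most of what was shared. CTCF peaks of WT lay at 75.2% (74.0 to 76.3) of shared, 26.8% (26.0 to 27.6) of parental-only and 21.2% (18.9 to 23.8) of knockout-only RAD21 peaks. Residual CTCF, meaning a CTCF peak still called after auxin, was again most frequent at shared peaks. It was called in ΔCTCF at 33.3% (32.0 to 34.6) of shared, 2.99% (2.70 to 3.30) of parental-only and 3.30% (2.39 to 4.53) of knockout-only peaks. The residual CTCF list of ΔCTCF/ΔMAZ gave 37.3%, 2.92% and 4.03%. When both lists were restricted to −log10 q of 5 or more, the parental-only and knockout-only shares at CTCF peaks of WT were 37.3% and 37.6%. At equal list length they were 55.4% (53.4 to 57.4) and 30.7% (28.9 to 32.6), so the difference between these classes depends on how the lists are cut. Most shared peaks also lay at cohesin sites of untreated cells, since 85.1% (84.1 to 86.0) overlapped a RAD21 peak of WT or ΔMAZ, against 35.2% (34.3 to 36.0) of parental-only and 27.5% (24.9 to 30.2) of knockout-only peaks. At equal list length, RAD21 peaks of WT lay at 91.6% (90.7 to 92.4) of shared, 61.6% (59.7 to 63.5) of parental-only and 33.1% (31.2 to 35) of knockout-only peaks, where the parental-only share in the full list was 29.3%.

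From the parental side, residual CTCF in either auxin list went with a shared RAD21 peak. Among ΔCTCF RAD21 peaks at a CTCF site of WT, 90.6% (89.0 to 92.0) of 1463 with residual CTCF in both lists were called in ΔCTCF/ΔMAZ. Where residual CTCF was called in ΔCTCF alone, 64.6% (60.9 to 68.1) of 666 were called. Where it was called in ΔCTCF/ΔMAZ alone, the share was 73.7% (70.7 to 76.5) of 871, and where it was called in neither, 36.2% (34.7 to 37.6) of 4354. These groups also differed in RAD21 strength, with median fold enrichments in ΔCTCF of 13.5, 8.34, 8.44 and 5.70 in the same order. From the knockout side the shares called in ΔCTCF were 98.1% (97.3 to 98.7), 98.9% (97.3 to 99.5), 97.7% (96.3 to 98.6) and 89.3% (87.8 to 90.7) in that order, so the 3 groups with residual CTCF had overlapping intervals and the drop without it was smaller.

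**Figure D2:**
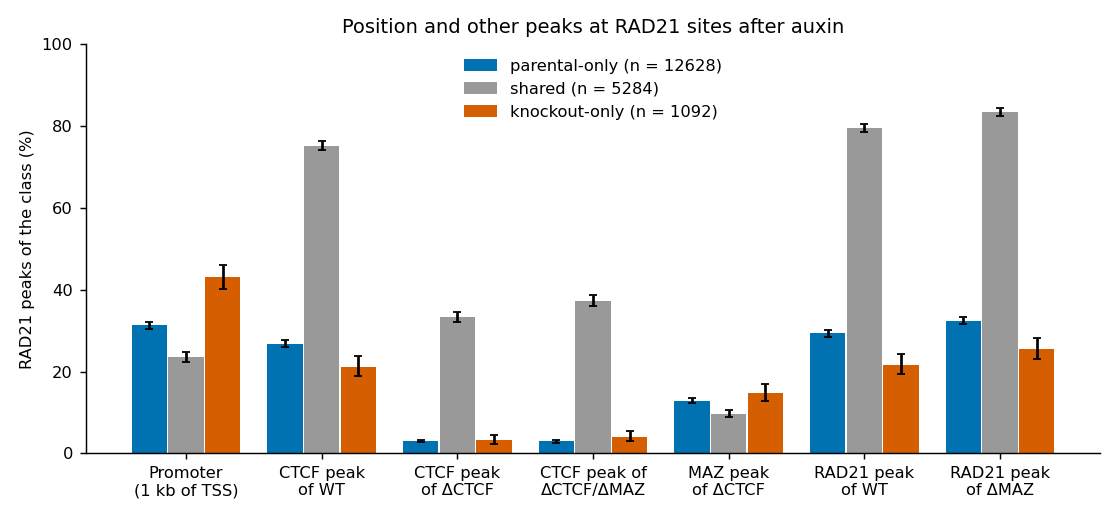
Share (%) of parental-only, shared and knockout-only RAD21 peaks that lie at a promoter or overlap a peak of another list, with shared peaks taken from ΔCTCF. Bars are single-library shares and error bars 95% Wilson intervals. Shared peaks stand out for CTCF (75.2% in WT) and for RAD21 of untreated cells, and knockout-only peaks for promoters (43.1%).

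MAZ peaks separated the classes far less than CTCF peaks did. MAZ peaks of ΔCTCF lay at 14.7% (12.7 to 16.9) of knockout-only, 12.9% (12.3 to 13.5) of parental-only and 9.63% (8.87 to 10.5) of shared RAD21 peaks. In knockout-only peaks this is a statement about position, since those cells are labelled as lacking MAZ. The intervals of the knockout-only and parental-only shares overlap, and the difference of 1.76 percentage points turned to -0.0763 when a reciprocal overlap of 50% was asked for, so no direction is given. At equal list length the knockout-only share was the higher, at 16.7% (15.3 to 18.2) against 8.23% (7.21 to 9.39). Neither a CTCF peak of WT nor a MAZ peak of ΔCTCF lay at 65.5% (62.6 to 68.2) of knockout-only, 61.1% (60.3 to 62.0) of parental-only and 17.6% (16.6 to 18.6) of shared peaks.

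Strength and kind of site together were followed for the ΔCTCF peaks, with residual CTCF taken from the ΔCTCF list. Peaks were placed into 5 groups of equal size by fold enrichment, and the share called in ΔCTCF/ΔMAZ rose from 5.92% (5.19 to 6.74) in the weakest to 83.5% (82.3 to 84.7) in the strongest group. Within each group, sites with residual CTCF were called most often and sites with neither a CTCF nor a MAZ peak least often. In the strongest group, 93.3% (92.0 to 94.4) of 1630 sites with residual CTCF were called, 78.7% (76.7 to 80.6) of 1670 sites whose CTCF peak was gone, 64.5% (52.1 to 75.3) of 62 sites with MAZ and no CTCF, and 53.4% (46.8 to 59.9) of 221 sites with neither. The kinds still differed in strength within this group, with median fold enrichments of 13.9, 9.84, 8.18 and 8.34 in that order. In the weakest group the shares were 25.0% (13.3 to 42.1) of 32, 10.8% (8.21 to 14.1) of 425, 8.51% (6.38 to 11.3) of 505 and 4.39% (3.67 to 5.24) of 2621. Sites that had MAZ in ΔCTCF, where the knockout removed it, were thus called at shares near those of CTCF sites without residual CTCF in the lower 4 groups, 39.3% (34.3 to 44.5) against 35.7% (33.3 to 38.2) in the fourth, and above those of sites with neither, 20.6% (18.5 to 22.8).

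Promoter peaks were called at least as often as others of like strength. Over all strengths the share was lower for promoter peaks, 23.9% (22.8 to 25.1) against 31.8% (31.0 to 32.6). Within the groups it was higher, at 7.63% (6.34 to 9.15) against 4.85% (4.03 to 5.83) in the weakest, 38.7% (35.4 to 42.0) against 29.8% (28.1 to 31.5) in the fourth and 87.1% (83.9 to 89.7) against 82.9% (81.5 to 84.2) in the strongest. In the third group the intervals overlapped, at 16.8% (14.7 to 19) and 15.6% (14.2 to 17.0).

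What the lower depth alone would leave was computed by thinning. Fragments of each ΔCTCF peak were thinned by the estimated depth ratio of 2.34 to match the shallower library. The chance that the peak still passed the lowest −log10 p of the ΔCTCF/ΔMAZ list, 4.32, was taken. Of the 17912 peaks, 12228 would remain, or 8048 against a stricter limit of 6.15, the 5th percentile of that list, while 6400 peaks were called in ΔCTCF/ΔMAZ. Weighted in this way, 38.8% of the remaining ΔCTCF peaks were called there, and 51.3% under the stricter limit. In the strongest group 99.8% were expected to remain and 83.5% were called, and in the fourth group 91.4% were expected, or 70.9% under the stricter limit, and 31.8% were called. Peaks were selected for a high pileup in ΔCTCF, and thinning starts from that pileup, so these expected shares are upper estimates. Other differences between the 2 immunoprecipitations, such as their efficiency, cannot be told apart from the genotype with 1 library of each.

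**Figure D3:**
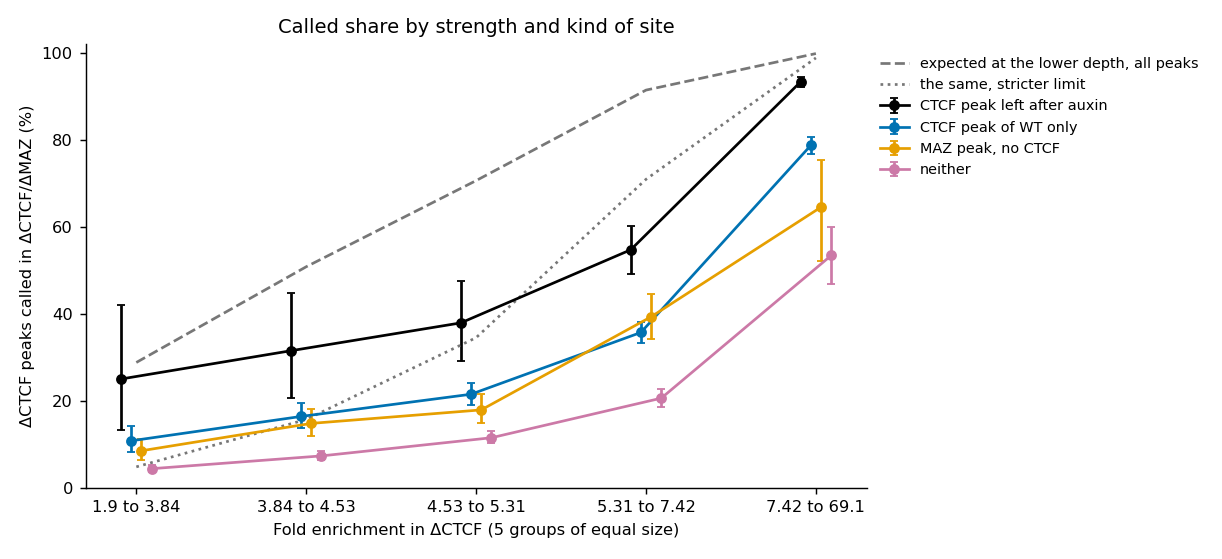
Share (%) of ΔCTCF RAD21 peaks called in ΔCTCF/ΔMAZ, over 5 groups of equal size by fold enrichment, for 4 kinds of site. Points are shares with 95% Wilson intervals, and grey lines are the share of all peaks expected to remain at the lower depth under 2 limits. Sites with residual CTCF lie highest, up to 93.3%, and sites with neither protein lowest, from 4.39% to 53.4%.

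At sites called in both libraries, levels were compared over 5316 pairs of overlapping peaks. The median fold enrichment was 8.23 in ΔCTCF and 7.16 in ΔCTCF/ΔMAZ, and the median log2 difference, ΔCTCF/ΔMAZ minus ΔCTCF, was -0.15 (quartiles -0.47 and 0.17). The pseudocount lowers fold enrichment more in a shallow library. As the ratio of pileup to background without it, the median log2 difference was 0.24 (quartiles -0.09 and 0.58), so the sign rests on the pseudocount. A weak ΔCTCF peak enters the pairs only where it was high enough in ΔCTCF/ΔMAZ to be called, which raises these differences, to 0.97 in the weakest group against 0.02 in the strongest on the scale without pseudocount. In the strongest group, where 83.5% of peaks were called, the median was 0.05 at residual CTCF, 0.03 at CTCF sites without it, -0.11 at 42 MAZ sites without CTCF and -0.25 at 122 sites with neither, and the quartiles of the last group were -0.49 and 0.00. The order of strength was kept at CTCF sites and hardly elsewhere. As a description, Spearman's rho of the fold enrichments was 0.77 over 1762 pairs with residual CTCF, 0.61 over 2225 CTCF sites without it, 0.27 over 393 MAZ sites and 0.19 over 936 sites with neither, whose ranges of strength are also narrower.

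Summits also lay closer together at CTCF sites than elsewhere. The 2 summits of a pair lay a median of 16.0 bp apart at residual CTCF and 22.0 bp apart at CTCF sites without it, against 81.0 bp at MAZ sites and 71.0 bp at sites with neither. They lay within 50 bp of each other in 90.0% of pairs with residual CTCF and in 38.9% of pairs with neither protein. In the strongest group the 50 bp shares were 91.9% and 32.8%. The median fold enrichments in ΔCTCF there were 14.3 and 8.81, so strength was not equal in that comparison.

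**Figure D4:**
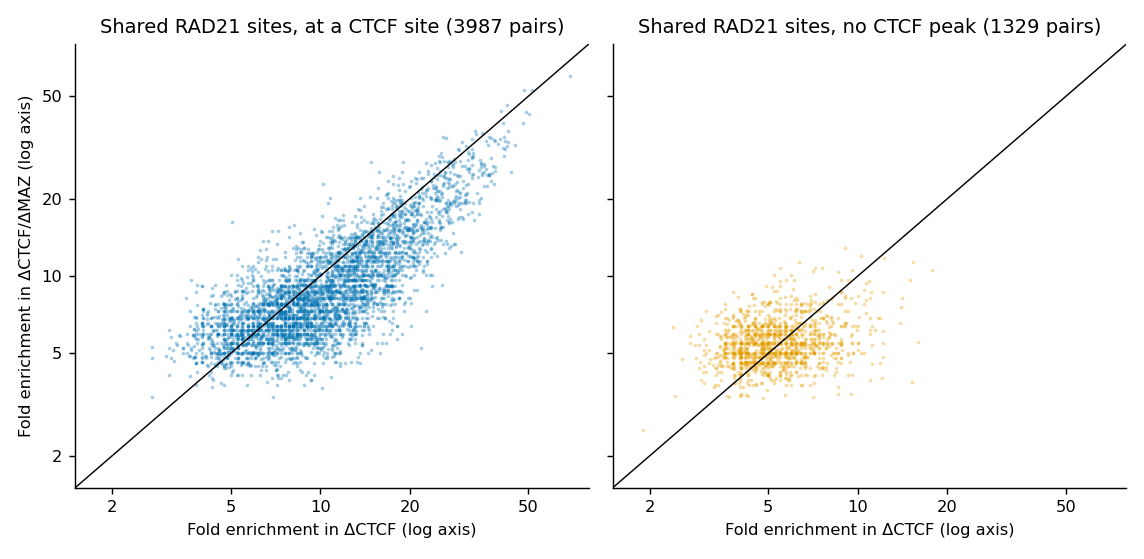
Fold enrichment of 5316 pairs of overlapping RAD21 peaks in ΔCTCF (x, log axis) and ΔCTCF/ΔMAZ (y, log axis), left at CTCF sites and right where no CTCF peak was called in WT or ΔCTCF. Each point is a pair and the line marks equal values. Pairs at CTCF sites follow the line up to 69.1 against 60.0, and pairs elsewhere form a cloud around 5.

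Short DNA strings were searched on both strands in windows from 50 bp before to 50 bp after each summit, and in windows of the same length 1 kb to either side. AGGNGGC, part of the CTCF core, was present at 34.4% (33.1 to 35.7) of shared summits and in 6.25% of their side windows. At parental-only summits it was present at 16.6% (15.9 to 17.2) against 5.64%, and at knockout-only summits at 16.5% (14.4 to 18.8) against 6.27%. At promoter peaks the shares were 31.1% (28.6 to 33.7) of shared, 17.8% (16.6 to 19) of parental-only and 18.7% (15.4 to 22.5) of knockout-only summits, beside 14.2% of windows around all coding TSS positions. The GC box GGGCGGG, bound by SP and KLF factors, ran the other way. It was present at 11.8% (10.0 to 13.9) of knockout-only, 7.40% (6.96 to 7.87) of parental-only and 5.24% (4.67 to 5.88) of shared summits, against 1.97%, 1.46% and 1.4% beside them. Much of this went with promoters, since among promoter peaks alone it was present at 21.2% (17.8 to 25.1) of knockout-only, 18.5% (17.4 to 19.8) of parental-only and 16.1% (14.2 to 18.3) of shared summits, and in 14.7% of windows around all 54327 TSS positions of protein-coding transcripts. The TSS windows used here and below are centred on a coding TSS, while promoter summits lie up to 1 kb from any annotated TSS, so their positions differ. Away from promoters the shares of the GC box were 4.67% (3.27 to 6.63) of knockout-only and 2.34% (2.04 to 2.68) of parental-only summits.

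GGGAGGG, the G-rich string bound by MAZ, was present at 6.78% (5.43 to 8.42) of knockout-only and 6.47% (6.05 to 6.91) of parental-only summits, against 3.98% and 4.39% beside them. At promoter peaks it was present at 7.64% (5.57 to 10.4) of knockout-only, 9.72% (8.84 to 10.7) of parental-only and 7.57% (6.22 to 9.17) of shared summits, and it was present in 9.02% of windows around all TSS positions of protein-coding transcripts. At shared summits it was no more frequent than beside them, 4.31% (3.80 to 4.90) against 4.74%. It can overlap GGAGGAGGA, which was present at 1.19% (0.697 to 2.03) of knockout-only and 0.626% (0.502 to 0.779) of parental-only summits, against 0.412% (0.217 to 0.781) and 0.570% (0.485 to 0.671) beside them. At promoter peaks its shares were 1.70% (0.863 to 3.32) and 1.04% (0.766 to 1.41), and it was present in 1.44% of windows around all coding TSS positions. The ETS string CCGGAAG was present at 2.38% (1.63 to 3.47) of knockout-only and 2.26% (2.01 to 2.53) of parental-only summits, against 0.321% and 0.546% beside them. At promoter peaks it was present at 4.46% (2.93 to 6.72) of knockout-only and 5.14% (4.49 to 5.87) of parental-only summits, and in 5.66% of windows around all coding TSS positions. These are not like positions, so enrichment at promoter peaks is not decided. The E-box CACGTG was present at 3.39% (2.47 to 4.64) of knockout-only, 2.19% (1.95 to 2.46) of parental-only and 2.04% (1.70 to 2.46) of shared summits, and at least 1.19% beside each. Around all coding TSS positions it was present in 2.74% of windows, and at promoter peaks in 3.82% (2.43 to 5.96) of knockout-only and 3.01% (2.52 to 3.59) of parental-only windows. GCGCATGC, AAGATGGC, TGACGTCA, ATGCAAAT, TCAAGGTCA and GGTTCGAAT, which stand for NRF1, YY1, CREB, OCT, ESRRB and the B box of polymerase III genes, were each present at no more than 1.23% of the summits of any class. At parental-only summits ATGCAAAT was present at 1.07% (0.904 to 1.26) against 0.578% beside, and TCAAGGTCA at 0.578% against 0.305%. There GCGCATGC was present at 0.594% against 0.174%, and TGACGTCA at 0.341% against 0.0831%. AAGATGGC (0.808% and 0.796%) and GGTTCGAAT (0.0317% and 0.0198%) lay near their shares beside.

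**Figure D5:**
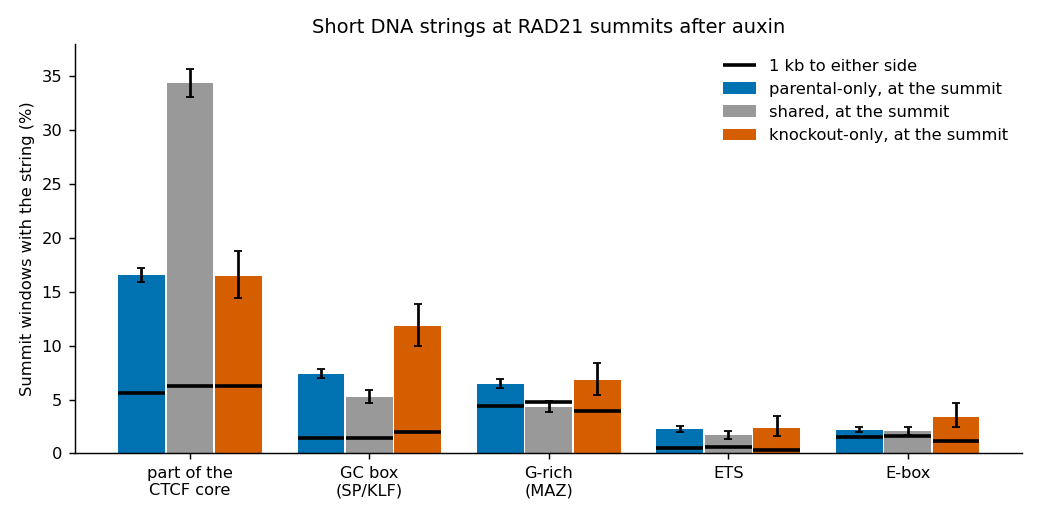
Share (%) of windows at RAD21 summits that hold a short DNA string on either strand, for parental-only, shared and knockout-only peaks. Bars are shares with 95% Wilson intervals and black lines the shares in windows 1 kb to either side. The part of the CTCF core stands out at shared summits (34.4%), and the GC box is highest at knockout-only summits (11.8%).

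Shared peaks included the strongest of the knockout list. The 8 highest at protein-coding promoters had fold enrichments of 27.5 to 35.7 in ΔCTCF/ΔMAZ and 24.3 to 34.5 in ΔCTCF. All 8 overlapped a CTCF peak in each of the 4 conditions and a RAD21 peak in both untreated lists. Dnajc12 had 33.4 in ΔCTCF and 35.7 in ΔCTCF/ΔMAZ, at chr10:63382598-63383090 in an intron. Dop1a, a gene of endosome to Golgi transport, had 29.1 and 31.1. Nob1, whose product is an endonuclease of ribosomal RNA maturation, had 25.2 and 29.2. Parp3, an ADP-ribosyltransferase of DNA repair, had 34.5 and 28.3, the only 1 of the 8 with a fall of more than 2 units. The others were Grm4, Radil, Spata20 and 1700020L24Rik. MAZ of ΔCTCF had a peak at 3 of the 8, Dop1a, Parp3 and Radil. The 4 highest shared sites away from promoters, on chromosomes 6, 15, 2 and 1, had fold enrichments of 43.9 to 53.1 in ΔCTCF/ΔMAZ and 40.5 to 51.5 in ΔCTCF, and each had residual CTCF in both auxin lists.

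Of the 8 highest parental-only peaks at promoters, 7 overlapped CTCF peaks of WT and ΔMAZ and RAD21 peaks of both untreated lists, and only Tmem220 kept a CTCF peak in ΔCTCF and only Rnf43 in ΔCTCF/ΔMAZ. Tcp11, a gene of sperm function, had a fold enrichment of 11.2 in ΔCTCF with 46 fragments over a background of 3.20, and no peak in ΔCTCF/ΔMAZ, although untreated cells had 25.6 in WT and 27.4 in ΔMAZ. Rnf43, which encodes a ubiquitin ligase that clears WNT receptors, had 10.2 in ΔCTCF, 24.0 in WT and 28.6 in ΔMAZ, at chr11:87662337-87662962. Ttll6, a tubulin polyglutamylase gene, had 9.31, with 11.2 in WT and 17.3 in ΔMAZ. The others were Mettl21a (9.29), Sept5 (9.08) and Trappc3l (9.05).

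Xpo6, which encodes the exportin of actin, was the exception. Its peak at chr7:126200387-126200745 had a fold enrichment of 9.05, lay at a MAZ peak of WT (4.71) and of ΔCTCF (7.35), and had no CTCF peak and no RAD21 peak in any other condition. At the lower depth each of the 8 had an expected chance of at least 99.8% of passing the limit, and of at least 98.4% under the stricter one. The 8 were picked for high fold enrichment in ΔCTCF and for lacking a partner. Their high chances follow from that choice, so no conclusion is drawn from them.

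Away from promoters the 4 highest parental-only sites reached 16.2 to 19.1. The highest, at chrX:150477670-150478928 with 79 fragments, overlapped CTCF in WT (14.6), ΔMAZ (31.9) and ΔCTCF (7.41) but not in ΔCTCF/ΔMAZ. It also overlapped a MAZ peak of WT (12.5). The second, at chr14:9318705-9319477, had 16.7 in ΔCTCF and only 6.96 in WT and 6.01 in ΔMAZ, with no CTCF or MAZ peak in any list. Those near Steap1 (16.7) and Ccdc190 (16.2) lay at CTCF peaks in all 4 conditions.

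Both unshared classes were weaker than the shared peaks of their own list. Parental-only peaks had a median fold enrichment of 4.47, against 8.24 for shared peaks of ΔCTCF. For knockout-only peaks the median fold enrichment was 5.04 and the highest 10.5, against 7.18 and 60.0 for shared peaks of the same list, and their median pileup was 11 fragments against 16. A −log10 q of at least 5 was reached by 388 of the 1092, and one of at least 10 by 38. By definition, these knockout-only peaks overlap no parental peak, and their distance to one was not compared with that of other positions. The nearest ΔCTCF summit lay a median of 20418 bp away and 8.79% (7.25 to 10.6) had one within 1 kb. A RAD21 peak of WT or ΔMAZ lay at 300 of them, and 792 were called in no other RAD21 list.

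Of the 8 highest knockout-only promoter peaks, none overlapped a CTCF peak and 3 overlapped a MAZ peak of ΔCTCF. Sgcb, which encodes a sarcoglycan, had a fold enrichment of 8.70 in ΔCTCF/ΔMAZ with 18 fragments and no RAD21 peak elsewhere. Trim59 had 8.34, with MAZ at 4.15 in WT and 8.52 in ΔCTCF. Ubtf, the gene of an RNA polymerase I factor, and Prkag2, the gene of an AMPK subunit, each had 8.24 with 17 fragments, and MAZ of ΔCTCF had 14.7 and 5.70 there. Zc3h13, Mrpl21 and Tnfrsf23 each had 7.78 with 16 fragments and no peak of RAD21, CTCF or MAZ in any other list.

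Away from promoters, the highest knockout-only peak, at chr4:129877280-129877560, had a fold enrichment of 10.5 with 22 fragments over 1.18 and no peak in the other 11 lists. Another of the 4 highest, near Nemp1, had 8.78 and lay at a CTCF peak of WT (34.0) and ΔMAZ (27.0). Runs of at least 30 bases of A and G (or of T and C), a measure chosen after the data were seen, were present at 1.01% (0.563 to 1.79) of knockout-only, 0.253% (0.180 to 0.358) of parental-only and 0.379% (0.245 to 0.584) of shared summits. This is 11, 32 and 20 windows. Beside the summits the shares were 1.69%, 1.71% and 2.10%.

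Among the knockout-only peaks, 19 overlapped a MAZ peak of a Maz knockout list, as did 2 shared and 0 parental-only peaks. The 19 had a median background of 59.4 fragments and a fold enrichment of 1.68 to 3.76, against a median background of 1.28 in the other 1073, whose backgrounds reached 60.2 and whose fold enrichments began at 1.86, so the ranges overlapped. They were clustered, with 4 on chromosome 2 from 98662195 to 98667398 and 4 on chromosome 9 between 2999961 and 3025691. Without them 43.1% of knockout-only peaks lay at promoters, as with them.

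By gene, 4054 of 21829 protein-coding genes (18.6%) had a RAD21 summit within 1 kb of a TSS in ΔCTCF and 1373 (6.29%) in ΔCTCF/ΔMAZ. At equal list length the numbers were 835 and 1373, so which list covers more genes depends on how the lists are cut. The full lists are used below. A summit between divergent genes counts for both. The ΔCTCF and ΔCTCF/ΔMAZ gene sets shared 1011 genes, which is 24.9% (23.6 to 26.3) of the first and 73.6% (71.2 to 75.9) of the second. The genes differed in their history more than in MAZ. A promoter RAD21 peak in WT or ΔMAZ was found at 63.6% (60.6 to 66.5) of the 1011 shared genes, 25.3% (23.8 to 26.8) of the 3043 genes of ΔCTCF alone and 19.6% (15.9 to 24.0) of the 362 genes of ΔCTCF/ΔMAZ alone. A promoter MAZ peak of ΔCTCF was found at 42.6% (39.6 to 45.7), 45.4% (43.7 to 47.2) and 45.3% (40.3 to 50.5) of them, and at 22.1% (21.6 to 22.7) of all protein-coding genes.

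Lists of genes were read against the 18.6% and 6.29% of all coding genes, as a description. Members with a peak in both lists were read against the 24.9% of ΔCTCF genes that also had one in ΔCTCF/ΔMAZ. Of 28 pluripotency factors, 10 had a promoter peak in ΔCTCF and 2 in ΔCTCF/ΔMAZ. Those 2 were Klf2 (6.46 in ΔCTCF and 7.72 in ΔCTCF/ΔMAZ) and Tbx3 (9.04 and 4.80), both of which had a peak in ΔMAZ too. Of the 2 auxin lists, ΔCTCF alone had a peak at Klf4 (5.96), Sall4 (4.70), Pou5f1 (4.67), Otx2 (4.64), Nr5a2 (4.53) and Esrrb (4.43). The same held for Sox2 (4.01) and Nanog (3.72), the core factors of the stem cell state with Pou5f1. None of these fold enrichments falls in the strongest of the 5 groups, and in the others between 5.92% and 31.8% of all ΔCTCF peaks were called. In untreated cells, Sall4 also had a peak in WT (6.09) and ΔMAZ (6.95), and Esrrb in ΔMAZ (5.14).

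Of 18 genes of cohesin subunits and regulators, 5 had a promoter peak in ΔCTCF and 3 in both, beside 24.9% over all ΔCTCF genes. Pds5b, a cohesin regulator, had 21.4 in ΔCTCF and 19.2 in ΔCTCF/ΔMAZ. Stag1, a cohesin subunit, had 5.0 and 5.49, and Rad21 itself had 4.29 and 4.64. Sgo1, the protector of centromeric cohesin (5.72), and Smc3, a core subunit (4.43), had a peak in ΔCTCF alone. Of 20 G-rich-binding zinc finger genes, 8 had a peak in ΔCTCF and 1, Sp3 (5.24), in ΔCTCF/ΔMAZ alone. No gene had both, beside 24.9% over all ΔCTCF genes, and 8 genes are too few to read this as a difference. The 6 highest of ΔCTCF were Klf3 (8.70), Klf13 (7.99), Zfp281 (5.96), Zfp148 (5.31), Maz (5.0) and Wt1 (4.25). MAZ peaks of ΔCTCF lay at 15 of these 20 promoters, and at 22.1% (21.6 to 22.7) of the promoters of all protein-coding genes.

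Lists of housekeeping genes were read against the 24.9% of all ΔCTCF genes that also had a peak in ΔCTCF/ΔMAZ. Of 82 cytosolic ribosomal protein genes, 24 had a promoter peak in ΔCTCF, 12 in ΔCTCF/ΔMAZ and 9 in both, with Rpl26 (11.4 and 7.03) the highest. Rpl36 (6.59), Rpl7 (6.56) and Rps15 (3.85) had one in ΔCTCF/ΔMAZ alone. Among the 15 of ΔCTCF alone, the highest were Rps12 (5.07), Rpl12 (4.69), Rps27l (4.53), Rpl37 (4.29) and Rps2 (4.22). Of 39 proteasome genes, 14 had a peak in ΔCTCF and 5 in both, among them Psmc4 (12.8 and 10.2) and Psmd2 (4.29 and 7.32). Psmd8 (5.72), Psmc2 (4.85), Psmb4 (4.05), Psma5 (4.01), Psmb7 and Psmc6 (3.81 each) had one in ΔCTCF alone. Of 53 splicing and RNA-processing genes, 16 had a peak in ΔCTCF, 5 in ΔCTCF/ΔMAZ and 4 in both, Hnrnph3, Hnrnpu, Sf3a1 and Srsf7. Hnrnpf (5.20) had one in ΔCTCF/ΔMAZ alone, and Srsf1 (5.24), Srsf2 (4.85), Hnrnpa3, Hnrnpk (4.76 each), Prpf18 (4.53) and Srsf5 (4.29) led those of ΔCTCF alone.

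Hox genes set position along the body axis. Of 39, 10 had a promoter peak in ΔCTCF and 6 in both lists, beside 24.9% over all ΔCTCF genes. Hoxa5 had 18.3 in ΔCTCF and 16.5 in ΔCTCF/ΔMAZ, Hoxa7 had 18.3 and 14.9, and Hoxc10 had 17.9 and 17.4. Hoxc13 was higher in the knockout library (7.09 and 10.5), at a promoter with a MAZ peak of ΔCTCF (14.3). Hoxd10 (6.91), Hoxc5 (5.10) and Hoxa11 (4.41) were among those with a peak in ΔCTCF alone.

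The shares of the developmental and imprinted lists with a peak in ΔCTCF, 17.2% and 18.2%, lay near the 18.6% of all coding genes. Of 29 developmental transcription factor genes found, 5 had a peak in ΔCTCF, Sox17 (5.24), Lhx3 (4.94), Eomes (4.76), Gata6 (4.64) and Pax7 (3.81), and 1, Nkx6-1 (5.49), in ΔCTCF/ΔMAZ. Of 22 imprinted genes found, Zrsr1 (6.19), Grb10 (5.0), Igf2 (4.29) and Commd1 (3.84) had a peak in ΔCTCF and none in ΔCTCF/ΔMAZ. Over all ΔCTCF genes 24.9% had both, and these lists hold too few genes to show a difference from that. Of 67 replication-dependent histone genes, 7 had a peak in ΔCTCF, and Hist4h4 (6.16 and 6.75) had one in both. Hist2h4 (3.66) had one in ΔCTCF/ΔMAZ alone, while Hist1h1c and Hist1h4i (4.76 each), Hist1h4c (4.64), Hist1h4d (4.53), Hist1h1b (3.57) and Hist1h1a (3.17) had one in ΔCTCF alone.

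Nat9 and Dnajb12 are loci that the study displayed. Each had a RAD21 peak in ΔCTCF, of 6.12 and 6.49, and none in ΔCTCF/ΔMAZ. MAZ of ΔCTCF had a peak at both, of 6.94 at Nat9 and 5.15 at the RAD21 peak of Dnajb12. At the lower depth their expected chances of passing the limit were 95.8% and 94.4%, or 70.9% and 78.4% under the stricter one. Both fell in the fourth strength group, where 31.8% of all ΔCTCF peaks were called.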

How the data were processed

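Lists of ChIP-seq peaks for RAD21, CTCF and MAZ were used, and 8 further samples were not analysed here. Per the labels and methods, the authors mapped reads to mm10 with Bowtie 2, filtered them with SAMtools, and called narrow peaks for each library with MACS. Use of an input control is not given in the sources used here. The deposited score is 10 times the −log10 q-value and was not used. The deposited fold enrichment, a ratio, ranked peaks. From it and the deposited −log10 p-value, the whole-number pileup and background of each peak were solved, which matched within 0.001 for all peaks of both auxin lists. The deposited summit offset located the sequence windows. Other units were not used.

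Annotation was GENCODE M21 and the genome GRCm38, the build of the lists. Overlap used at least 1 bp and was checked against bedtools 2.31.1 for every RAD21 peak after auxin, with 0 peaks differing. The pileup, thinning and overlap steps were tested on simulated data. Python 3.11.15 with SciPy 1.17.1 was used.

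The sites and gene lists were chosen with earlier results of these data known. Named sites were, for each class, the 8 promoter and 4 other peaks of highest fold enrichment, leaving out chromosomes 18 and Y, with shared peaks ranked in ΔCTCF/ΔMAZ and promoter peaks required to lie within 1 kb of a protein-coding TSS. From each of the 10 gene lists, members with a promoter peak in 1 list alone were named, up to 6 by fold enrichment, besides others chosen after their values were seen. Printed windows are 7 of 12 taken from the strongest sites whose window touches no exon. Some genes, sites and windows that these rules name are not reported here. Alternatives included other overlap rules, q limits, equal list length and depth.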

Additional observations from a re-analysis of the deposited data

Results flagged for a closer look

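The number of RAD21 peaks in Maz knockout relative to parental cells differed with and without auxin. After auxin the ratio was 0.357 (6400 against 17912 peaks), and in untreated cells it was 1.02 (20872 against 20371), which is close to no change. It stands here because the ratios lie on either side of 1. With 1 library of each kind, this difference was not tested. The parental library was 2.34 times as deep after auxin, and the knockout library 1.29 times as deep without it.

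Signal was present in lists that the comparisons did not use. Of the knockout-only RAD21 peaks, 19 overlapped a MAZ peak of Maz knockout cells, while 0 parental-only and 2 shared peaks did. Their median background was 59.4 fragments against 1.28 at the other knockout-only peaks.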

How the results depend on the processing

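Of 103 values of 15 results under 12 alternatives, 34 stayed within their interval (or, for numbers of genes, within 1.5 times), 68 moved further and 1 turned direction. The cause of these changes was not tested beyond what each alternative leaves out. With a reciprocal overlap of 50%, the MAZ share of knockout-only minus parental-only peaks turned from 1.76 to -0.0763 percentage points. That rule also gave called shares of 24.2% (ΔCTCF) and 67.7% (ΔCTCF/ΔMAZ), promoter shares of 40.0% (knockout-only) and 20.6% (shared) with a difference of 8.33 points between knockout-only and parental-only, CTCF shares of 25.3% (parental-only) and 80.2% (shared), and MAZ shares of 8.08%, 8.15% and 4.41% (knockout-only, parental-only, shared).

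With −log10 q of at least 5, the called shares were 32.3% and 88.4%, the promoter shares 27.3% (parental-only) and 19.1% (shared), the CTCF shares 37.6%, 37.3% and 87.2% (knockout-only, parental-only, shared), the MAZ shares 18.9% (knockout-only) and 5.85% (shared), the MAZ difference 6.34 points, and the genes 2385 and 748. With at least 10, they were 35.3% and 95.1% called, 31.6%, 18.6% and 16.1% at promoters, 62.4%, 64.3% and 97.6% at CTCF, 8.70% (parental-only) and 3.15% (shared) at MAZ, a MAZ difference of 7.54 points, and 818 and 260 genes.

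At equal list length by fold enrichment, 61.9% and 62.2% were called (62.4% and 62.8% when ranked by −log10 p). Promoter shares were 18.3% (parental-only) and 18.1% (shared) with a difference of 23 points. CTCF shares were 30.7%, 55.4% and 87.3%. MAZ shares were 8.23% (parental-only) and 6.29% (shared), and the MAZ difference was 8.47 points. ΔCTCF held 835 genes and ΔCTCF/ΔMAZ 1373, so the knockout list covered more genes. In the full lists the numbers were 4054 and 1373. Gene numbers were labelled for each list alone, so this change of order is not counted above as a turn of direction. At the depth of ΔCTCF/ΔMAZ, 38.8% and 74.5% were called (51.3% and 64.9% with the stricter limit), promoter shares were 27.9% (parental-only) and 21.2% (shared) with a difference of 15.3 points, CTCF shares 25.4%, 34.1% and 79.8%, MAZ shares 11.8% (parental-only) and 8.24% (shared), and the MAZ difference 4.94 points.

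With a gap of up to 500 bp, 30.9% and 84.1% were called. Promoters of 2.5 kb held 51.2%, 40.1% and 32.7% of knockout-only, parental-only and shared peaks. With the MAZ list of WT, 11.9% of parental-only peaks lay at MAZ. The higher promoter share of knockout-only than parental-only peaks held under all 7 alternatives tried for it. None of the 7 compared the classes at like strength.

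No paired analysis was possible because each condition had 1 RAD21 list. The depth of ΔCTCF/ΔMAZ limits what its list can show at weak sites, where a median knockout-only peak rested on 11 fragments.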
